A study of Mus musculus with 2744 samples.

Results

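The 49 genes described here act in the G2 phase of the cell cycle and in mitosis. They were chosen by gene symbol, not by a threshold on measured values, and all 49 were found in every table among 23968 genes. They comprise 6 cyclins and partners of the kinase Cdk1, 4 mitotic kinases, 5 genes of the spindle checkpoint, 3 genes around the anaphase-promoting complex, 8 genes of the centromere and kinetochore, 6 mitotic kinesins, 4 spindle proteins, 3 cytokinesis genes, 5 condensin subunits, 3 chromosome proteins and 2 further genes, Cdca3 and Gtse1.

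Single cells were taken from mouse embryonic stem cells (mESCs) that were being turned into motor neurons as embryoid bodies, floating cell aggregates, by the differentiation method of Wichterle. Cells were freed from the aggregates with papain, sorted 1 to a well, and read out with a modified CEL-seq protocol, in which messenger RNA of each cell receives a barcode and is amplified by transcription. The groups are Day 2, Day 3, Day 4, Day 5 and Day 6, each without an eGFP label, Day 6 eGFP++ and Day 6 eGFP+. A main and a pilot experiment, which the submitters state to be 2 biological replicates, each hold every group except Day 6 eGFP+, which is 1 plate of the main experiment. The labels name neither the cell line nor the reporter behind eGFP, and they list no treatment or allele that sets one day apart from another.

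In dividing cells Cdk1 with cyclins A and B starts mitosis, Aurora and Polo kinases build the spindle, the checkpoint proteins hold the cell until every chromosome is attached, and Cdc20 then lets the anaphase-promoting complex destroy cyclin B and end mitosis. Genes of this kind are transcribed together late in the cell cycle. In the developing spinal cord, motor neurons arise from dividing progenitors and are postmitotic, so genes that serve division alone are normally low in them.

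Of 2744 wells, 2448 had at least 500 detected genes and were kept, between 57 and 422 per group and experiment, except 39 pilot Day 6 eGFP++ cells. Reads were summed over the cells of a group in 1 experiment, giving 13 sums of 16370502 to 100972780 gene reads. Levels are given as CPM, the reads of a gene scaled to the same total of gene reads in every sum. Reads carry no molecular identifiers, so intervals and limits cover counting error only. Pou5f1, a stem cell factor, was read in 94.4% and 47.3% of main and pilot cells on Day 2 and in 0.282% and 1.41% on Day 6, and Tubb3, a neuronal tubulin, in 7.61% and 1.35% and in 49.7% and 39.4%. Stmn2, a regulator of neuronal microtubules, did not follow the days in this way in the main experiment, where it was read in 45.6% of cells on Day 2, 5.31% on Day 4 and 44.6% on Day 6, while the pilot shares were 12.2%, 5.26% and 33.8%. Reads of Egfp were found in 99.6% and 97.4% of eGFP++ cells, in 50.6% of eGFP+ cells and in 58.8% and 57.7% of the Day 6 cells with no eGFP label. The plate labelled eGFP+ thus did not stand above the unlabelled Day 6 cells in Egfp. Motor neuron markers Isl1 and Mnx1 were read in 55% and 18.4% of main and in 25.6% and 7.69% of pilot eGFP++ cells.

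The summed level of the 49 genes was high from Day 2 to Day 5 and lower on Day 6, in both experiments, and it was lowest in eGFP++ cells. In the main experiment it was 7912, 7535, 6575, 7017 and 3965 CPM on Days 2, 3, 4, 5 and 6. In the pilot experiment it was 9875, 9819, 8125, 8071 and 4996 CPM. The Day 6 level was 1.77-fold below Day 5 and 2.00-fold below Day 2 in the main experiment, and 1.62-fold and 1.98-fold below in the pilot. The 2 pilot Day 6 plates differed, at 3572 and 6921 CPM, and the lowest pilot plates of Days 4 and 5 had 7296 and 7229 CPM. Days 2 to 5 spanned 6575 to 7912 CPM in the main and 8071 to 9875 CPM in the pilot experiment, so the Day 6 sums lie below the earlier ones in both. In such sums fewer cells with a gene's RNA and less RNA per cell cannot be told apart. In eGFP++ cells the level was 1383 CPM in the main and 713 CPM in the pilot experiment, 2.87-fold and 7.01-fold below Day 6. In eGFP+ cells it was 4138 CPM, 1.04 times the Day 6 level of the same experiment.

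**Figure D1:**
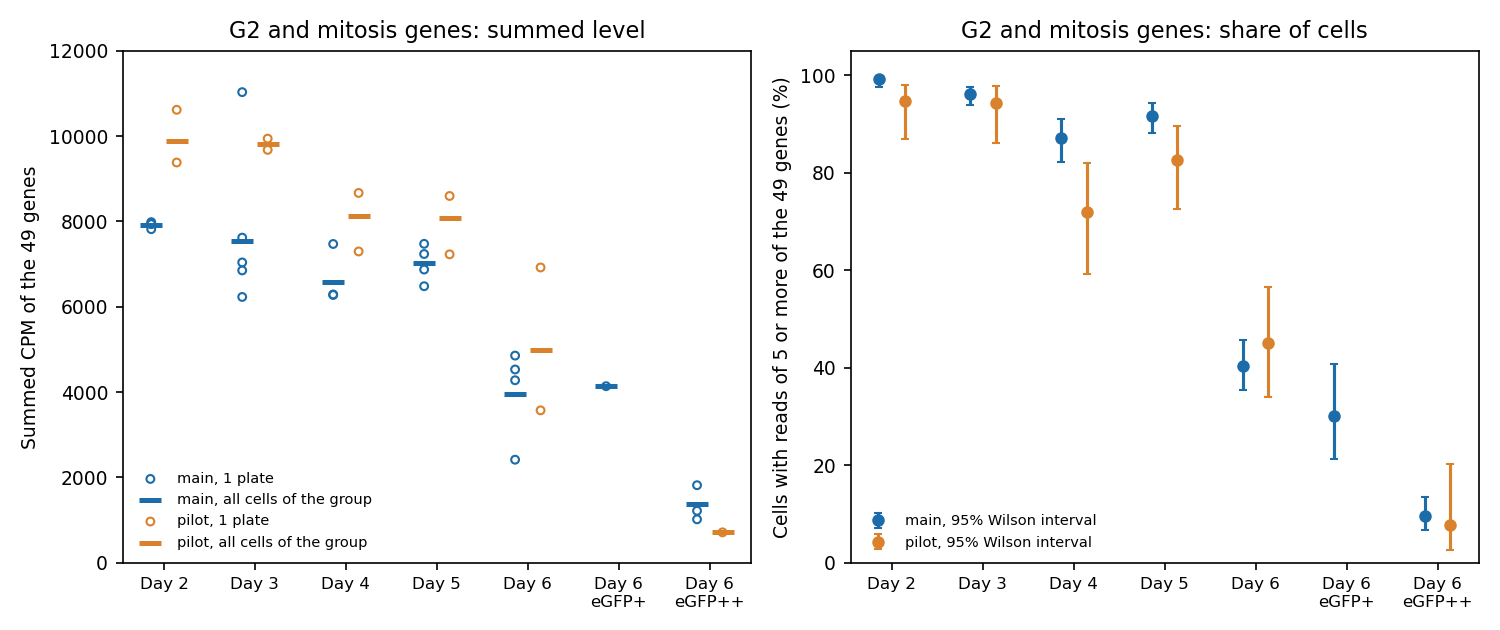
Summed level of the 49 G2 and mitosis genes in CPM (left; circles are single plates, short dashes the sum over all kept cells of a group) and share of cells with reads of at least 5 of them (right, with 95% Wilson intervals) for each group, main in blue and pilot in orange. Within each experiment, Day 6 and the eGFP groups lie below Days 2 to 5 in both panels, and the pilot eGFP++ dash, at 713 CPM, is the lowest.

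Members were also counted in single cells, each thinned at random to 10000 gene reads; cells with fewer reads were left out. This matches the number of reads and not of RNA molecules, which these data do not count, and the genes found in a thinned cell still differed between sums, from a median of 888 to one of 2167. The median main cell had reads of 21, 17, 13, 16 and 3 members on Days 2 to 6 and the median pilot cell of 11, 13, 9, 13 and 4. A main Day 2 cell held up to 38 members. Reads of at least 5 members were found, with 95% Wilson intervals, in 99.2% (97.5 to 99.7%) of main Day 2 cells, 96.2% (93.9 to 97.7%) of Day 3, 87.2% (82.2 to 90.9%) of Day 4, 91.7% (88.2 to 94.2%) of Day 5 and 40.4% (35.4 to 45.6%) of Day 6 cells. In the pilot experiment the shares were 94.6% (86.9 to 97.9%), 94.2% (86 to 97.7%), 71.9% (59.2 to 81.9%), 82.7% (72.6 to 89.6%) and 45.1% (34 to 56.6%). The Day 6 intervals lie below every earlier interval of the same experiment, but they count cells and leave out differences between plates. Main Day 6 plates ran from 24.7% to 47.1%, wider than their interval, and pilot Day 6 plates from 40.6% to 48.7%. The lowest earlier plates, both of Day 4, had 84.3% (main) and 62.5% (pilot), above every Day 6 plate of the same experiment. In eGFP+ cells the share was 30.1% (21.3 to 40.7%) and in eGFP++ cells 9.57% (6.66 to 13.6%) and 7.69% (2.65 to 20.3%). No read of any member was found in 4.8% of main Day 6, 2.82% of pilot Day 6, 6.02% of eGFP+, 10.3% of main eGFP++ and 30.8% of pilot eGFP++ cells. Between 2.25% and 28.2% of the cells of a sum had 4, 5 or 6 members, just at the cut of 5.

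**Figure D2:**
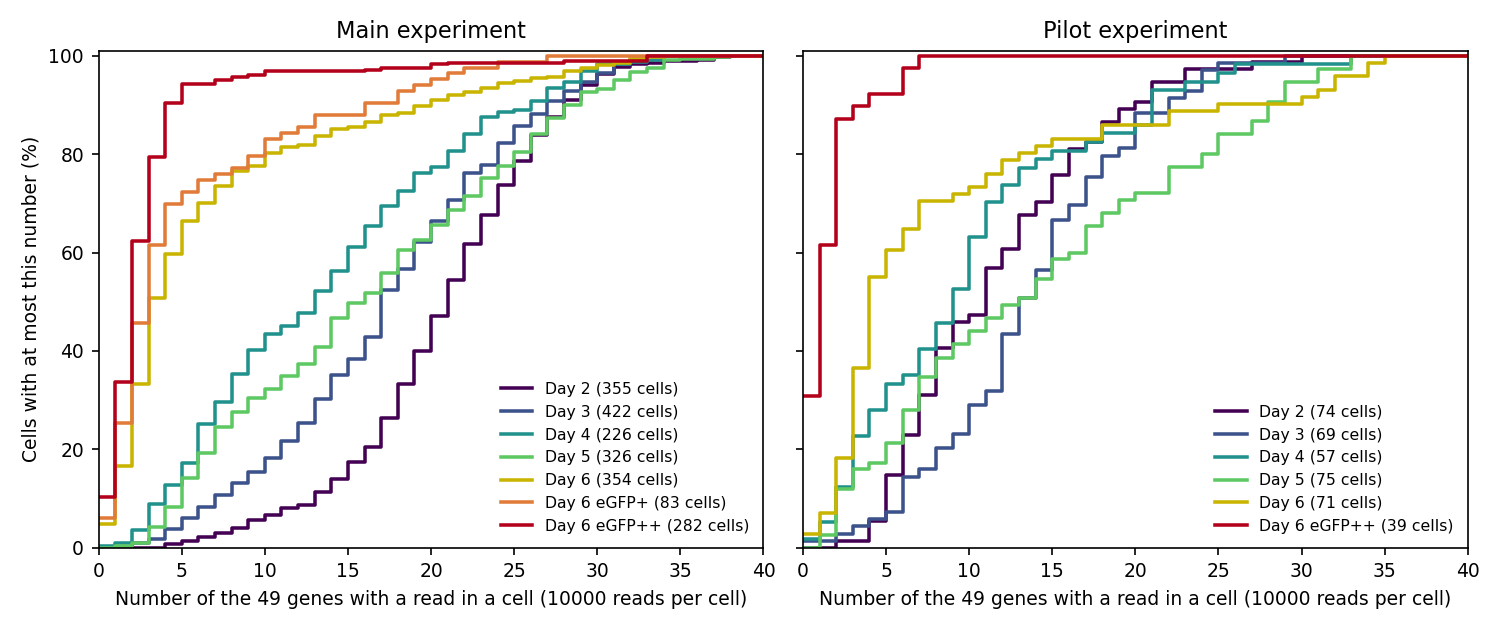
Cumulative share of cells (vertical axis, %) by the number of the 49 genes with a read (horizontal axis, cells thinned to 10000 reads) for each group, main left and pilot right. The Day 6 and eGFP curves rise steeply at low numbers, with a tail of Day 6 cells up to 34 and 35 members.

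Members' reads were more concentrated in few cells on Day 6 than on Day 2 in both experiments. The 10% of cells with most reads of members gave 60.1% of all members' reads in the main and 62.2% in the pilot Day 6 sum, against 29.6% and 33.1% on Day 2. On Day 4 the share was 50.8% and 41.8% and on Day 5 51% and 38.4%, so that in the main experiment most of the difference from Day 2 was present by Day 4. Cells were not thinned for these shares, so a cell may stand among the 10% because it was read more deeply. The same share for the reads of all genes was not computed.

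Spike-in RNA gives another scale. Reads of members per 1000 spike-in reads went from 258 on Day 2 to 21.4 on Day 6, 12.03-fold lower, in the main experiment. Pilot values were 198 and 27.4, 7.24-fold lower. All gene reads per spike-in read were 6.03-fold and 3.66-fold lower, so part of the drop on this scale is shared by all genes. The number of genes per thinned cell moved in opposite directions between the experiments, from a median of 2167 on Day 2 to 1494.5 on Day 6 in the main and from 1003 to 1682 in the pilot. Its part in the members' changes was not tested.

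The reads of 16080 genes in 12 sums, eGFP+ left out, were fitted with edgeR, and all 49 members were tested. Values of log2 change are ± their standard error (SE), n = 2 sums per group. A second fit counted thinned cells with a read, over 13289 genes that include all 49 members. In the slope over Days 2 to 6, which asks for a steady change per day, 7 of 49 members were called in reads (edgeR, adjusted p under 0.05) and all 7 fell, beside 2.16% of all tested genes called lower and 1.97% called higher. The members' median slope was -0.26 log2 per day, against 0.02 for all tested genes. In cells with a read 12 members were called and all 12 fell, beside 5.76% of all genes called lower and 7.45% higher. The slope in reads gave 1 call without the pilot Day 2, the main Day 6 or the pilot Day 6 sum and 2 without the main Day 2 sum, and DESeq2 called 20; in cells it gave 2, 3 and 6 without the main Day 2, main Day 6 and pilot Day 6 sums. Of all genes DESeq2 called 1172 lower and 1441 higher along the slope. The slope and the comparisons of single days share their Day 2 and Day 6 sums, so their counts are not independent of each other.

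**Figure D3:**
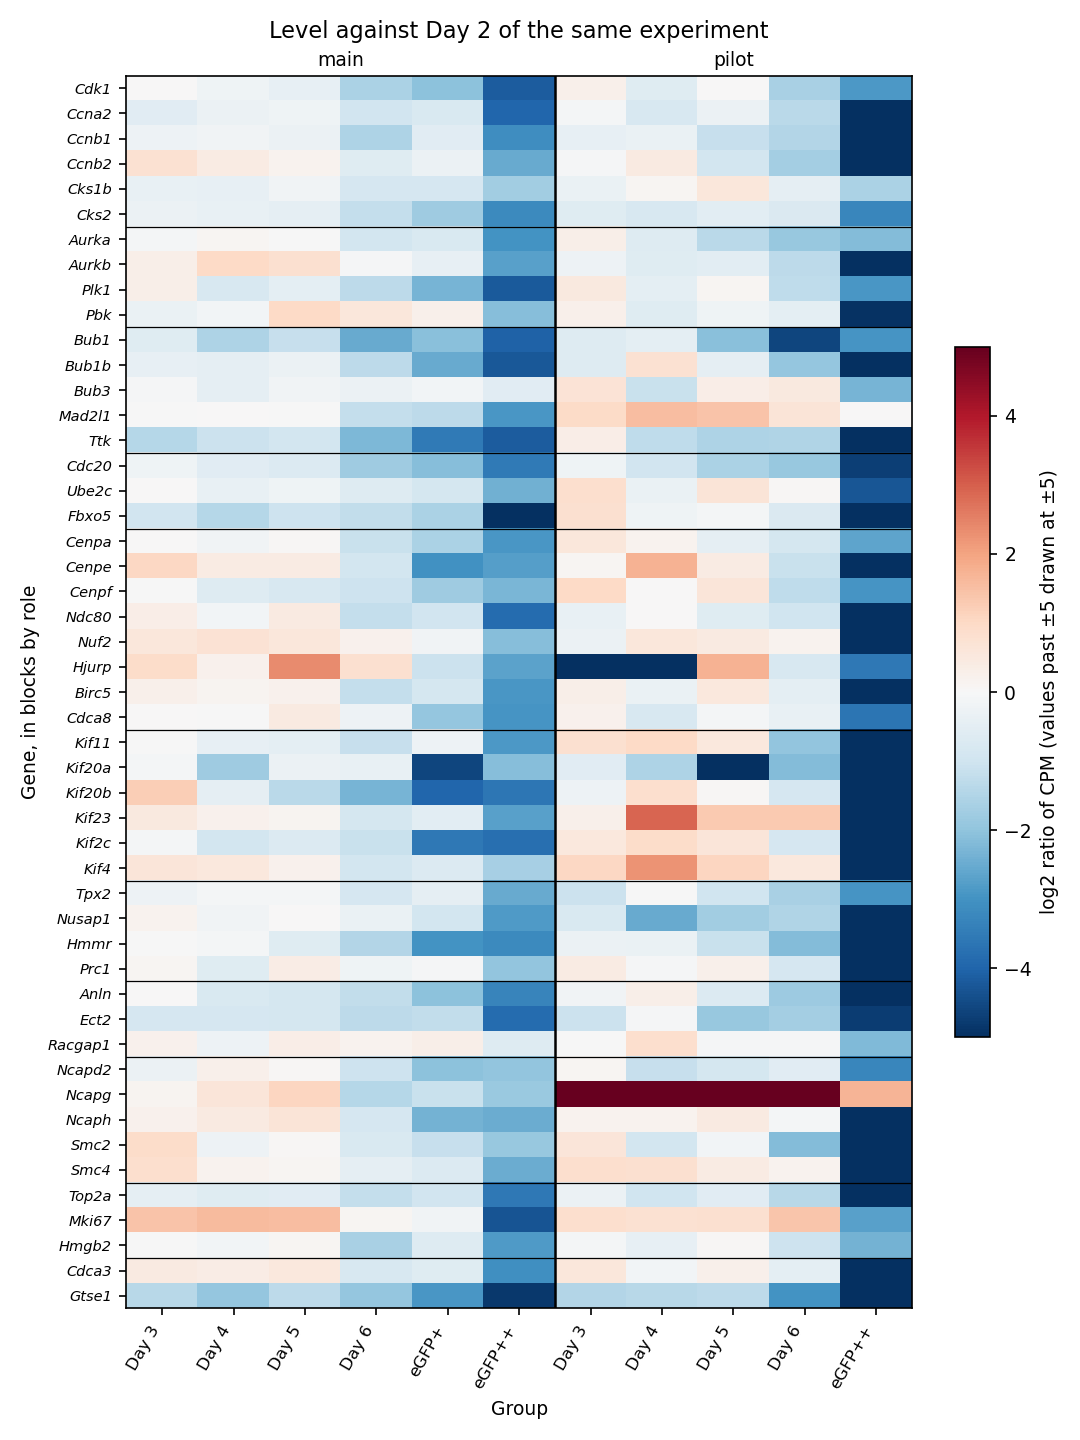
The log2 ratio of CPM against Day 2 of the same experiment for the 49 genes (rows, blocks by role) in each later group (columns; main left, pilot right; blue lower, red higher, sums under 3 reads set to 3). Most rows turn blue on Day 6 and darkest in eGFP++; Bub3 and Racgap1 stay pale in the main experiment and Ncapg, with 1 read in the pilot Day 2 sum, is red there.

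Cdc20, which activates the anaphase-promoting complex, had the smallest adjusted p of the slope in reads. It stood at 271, 232, 182, 168 and 79.96 CPM on Days 2, 3, 4, 5 and 6 of the main experiment and at 430.3, 369, 222, 145 and 117 CPM in the pilot. It declined at every step in both, so that Days 2 and 6 do not overlap, and its slope was -0.49 ± 0.07 log2 per day (adjusted p = 0.00564). It was read in 72.7% (95% Wilson interval 67.8 to 77%) of main Day 2 cells and in 15.5% (95% Wilson interval 12.1 to 19.7%) of Day 6 cells. In all alternatives its slope remained called. The complex's ubiquitin enzyme Ube2c was at 285, 287, 223, 243 and 181 CPM in the main and 184, 328, 145, 284 and 192 CPM in the pilot experiment, and its pilot level on Day 6 is not below that on Day 2. In cells with a read it fell from Day 2 to Day 6 (-1.02 ± 0.36, adjusted p = 0.0379). Fbxo5, an inhibitor of the complex, was at 149, 76.5, 55.8, 73 and 62.8 CPM and 102, 179, 88.5, 95.4 and 62.2 CPM, and its slope in reads did not pass (-0.30 ± 0.10, adjusted p = 0.1).

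Among the spindle checkpoint genes Bub1, a kinase at the kinetochore, had 95.5, 63, 32.7, 43.3 and 16.6 CPM in the main and 165, 105.1, 119, 39 and 6.88 CPM in the pilot experiment. The Day 6 sums are the lowest of both, and the slope was -0.78 ± 0.16 per day (adjusted p = 0.0196). It was read in 45.6% and 27% of main and pilot cells on Day 2 and 6.78% and 4.23% on Day 6. Bub1b, which helps to hold the complex inactive, had 54.5, 41.1, 40.2, 43.9 and 21.9 CPM and 119, 77.1, 199, 86.4 and 31.3 CPM and was called in cells with a read from Day 2 to Day 6 (-2.32 ± 0.60, adjusted p = 0.00218). The kinase Ttk was at 34.4, 12.9, 16.4, 18.3 and 7.26 CPM and 53.1, 66.9, 22.1, 18.2 and 18.9 CPM and fell in cells with a read from Day 2 to Day 6 (-1.94 ± 0.70, adjusted p = 0.0431). Bub3, a partner of both Bub proteins, is 1 of the 10 members with the highest mean level and behaved differently. It was at 548, 529, 401, 482 and 444 CPM in the main and 252, 408, 118, 317 and 353 CPM in the pilot experiment. The pilot value on Day 6 is above that on Day 2, and its slope did not pass (-0.05 ± 0.10, adjusted p = 0.868). Mad2l1, a further checkpoint protein, was not called in any comparison.

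The cyclins and their partners had a summed 1935 CPM on Day 2 and 896 CPM on Day 6 in the main experiment, 2.16-fold lower, and 2183 and 963 CPM in the pilot, 2.27-fold lower. Ccnb1, cyclin B1, was at 555, 469, 492, 458 and 192 CPM in the main and 852, 633, 675, 383 and 311 CPM in the pilot experiment, with a slope of -0.37 ± 0.08 (adjusted p = 0.0256). Cdk1, the kinase that drives cells into mitosis, had 193, 196, 167, 147 and 64.9 and 256, 304, 169.7, 258 and 83.3 CPM. It was not called in reads, but in cells with a read it fell from Day 2 to Day 6 (-1.93 ± 0.42 on the log2 scale, adjusted p = 0.0001858) and along the slope (-0.37 ± 0.10, adjusted p = 0.0155). It was read in 62.8% and 40.5% of Day 2 and 13% and 15.5% of Day 6 cells. The main Day 6 level lies below every other main level. Cyclin A2, Ccna2, had 144, 97.8, 118, 126 and 74.7 CPM and 179, 168, 104.0, 146 and 69.6 CPM, and cyclin B2, Ccnb2, had 169.7, 284, 228, 192 and 111 CPM and 288, 279, 395, 152 and 88 CPM. Both fell in cells with a read from Day 2 to Day 6 (-1.71 ± 0.46 and -1.08 ± 0.40, adjusted p = 0.00329 and 0.0498), and the pilot Ccnb2 level was highest on Day 4. The Cdk1-binding proteins Cks1b and Cks2 were not called over the days. Cks1b had 619.7, 481, 473, 545 and 342 CPM and 351, 275, 372, 514 and 254 CPM, and Cks2 254, 209.7, 197, 184 and 111 CPM and 257, 168, 146, 178 and 157 CPM.

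Of the mitotic kinases, Plk1, Polo-like kinase 1, had 215, 261, 124, 155 and 87.4 CPM in the main and 307, 433, 221, 327 and 128 CPM in the pilot experiment. Aurka, which builds the spindle poles, was at 138, 129, 149.9, 136 and 74.1 CPM and 182, 222, 117, 71.6 and 48.4 CPM. Both kinases fell in cells with a read from Day 2 to Day 6 (-1.86 ± 0.46 and -1.78 ± 0.50, adjusted p = 0.00103 and 0.00548) and along the slope (adjusted p = 0.0169 and 0.0236). Aurkb, the kinase of the chromosomal passenger complex, had 79.2, 96, 159, 139 and 75.6 CPM and 138, 115, 90.9, 96 and 54.9 CPM and was not called over the days, and neither was Pbk.

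The centromere and kinetochore genes include 2 further members of that passenger complex. Birc5, survivin, was at 229.9, 276, 250.2, 264 and 99.7 CPM in the main and 249.6, 303, 196, 360.5 and 178 CPM in the pilot experiment. Cdca8, borealin, was at 193, 196, 193, 265 and 161 CPM and 221, 259.8, 127, 204 and 171 CPM. Day 6 is the lowest day for main Birc5, pilot Birc5 and main Cdca8, while pilot Cdca8 is lowest on Day 4. In cells with a read both fell from Day 2 to Day 6 (-1.31 ± 0.38 and -1.15 ± 0.40, adjusted p = 0.00794 and 0.0323). Cenpa, the histone of the centromere, had 209.7, 211, 187, 221 and 95.7 CPM and 167, 245, 189, 124 and 92 CPM. Cenpf, a kinetochore protein, had 164, 162, 103.7, 93.1 and 81 CPM and 126, 253, 126, 191 and 52 CPM. Both fell in the same comparison (-1.14 ± 0.38 and -1.23 ± 0.41, adjusted p = 0.0262 and 0.0252), and Cenpf also along the slope (adjusted p = 0.0492). Cenpe, Ndc80, Nuf2 and Hjurp were not called. Hjurp, which loads Cenpa, had 0 to 16.9 CPM over the sums and was found in at most 4% of cells of a sum.

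Of the chromosome proteins, Top2a and Hmgb2 were called. Top2a, the topoisomerase that untangles sister chromatids, was at 1192, 876, 781, 812 and 523 CPM in the main and 2130.1, 1717, 1058, 1443 and 813 CPM in the pilot experiment. Its slope was -0.31 ± 0.06 (adjusted p = 0.0224), and it was read in 91.3% (95% Wilson interval 87.9 to 93.8%) of main Day 2 and 25.1% (95% Wilson interval 20.9 to 29.9%) of main Day 6 cells. In the pilot experiment the shares were 66.2% (95% Wilson interval 54.9 to 76%) and 49.3% (95% Wilson interval 38 to 60.7%), and these intervals overlap. Hmgb2, a chromatin protein, had 669.9, 665, 608, 711 and 215 CPM and 594, 559, 451, 613 and 289.7 CPM. Its share of cells stayed between 85% and 94.6% up to Day 5 of the main experiment and was 44.1% on Day 6, while pilot shares were 64.9%, 71%, 61.4%, 80% and 49.3% on Days 2 to 6, and it fell from Day 2 to Day 6 in cells with a read (-0.79 ± 0.25, adjusted p = 0.0164). Mki67, the marker antigen of proliferating cells, was not called. Its pilot Day 6 level of 336 CPM is above the 129 CPM of Day 2, while 15.5% of those cells had a read, and 1 cell gave 32.8% of its reads.

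Among the spindle and cytokinesis genes, Hmmr, a microtubule-binding protein of the spindle, was at 78.3, 77.1, 73.2, 51.7 and 28.7 CPM in the main and 169, 138, 133, 78 and 37.5 CPM in the pilot experiment, with a slope of -0.47 ± 0.09 (adjusted p = 0.0194). Anln, anillin of the contractile ring, was at 79.7, 81.3, 47.3, 43.9 and 33.9 CPM and 131, 115, 159, 82.6 and 37.7 CPM, with a slope of -0.41 ± 0.10 (adjusted p = 0.0375). Both were lowest on Day 6 in both experiments. Ect2, which switches on the ring through RhoA, had 52.8, 29.6, 29.3, 28.8 and 21.6 CPM and 132, 62.7, 126, 35.4 and 41.1 CPM and fell in cells with a read from Day 2 to Day 6 (-1.78 ± 0.62, adjusted p = 0.0355). Racgap1, a partner of Ect2, was not called and had 69.6 CPM on Day 2 and 78.4 CPM on Day 6 in the main experiment. Tpx2, Nusap1 and Prc1, which bind spindle microtubules, were not called over the days.

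Of the 6 mitotic kinesins, motor proteins of the spindle, Kif20b alone was called. It was at 32.2, 75.5, 23.7, 12.6 and 6.42 CPM in the main and 20.2, 17.1, 35.8, 21.3 and 11.3 CPM in the pilot experiment, and its slope in cells with a read was -0.46 ± 0.14 (adjusted p = 0.034). Kif20b was read in at most 16.9% of the cells of a sum. Gtse1, a protein of G2 and spindle microtubules, had 142, 54.6, 37.3, 57.6 and 36.9 CPM in the main and 179, 65, 67.9, 73 and 22.7 CPM in the pilot experiment. Most of its decline lies between Days 2 and 3, and its slope was -0.52 ± 0.11 (adjusted p = 0.0267). Cdca3, which marks proteins for breakdown, had 96.2, 131, 125, 139.9 and 55.4 CPM and 109.6, 163, 100.3, 132 and 77.9 CPM and was not called over the days. The 5 condensin subunits Ncapd2, Ncapg, Ncaph, Smc2 and Smc4, which compact chromosomes, were not called in any comparison, and their summed level was 255 and 420.0 CPM on Day 2 and 154 and 264 CPM on Day 6.

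**Figure D4:**
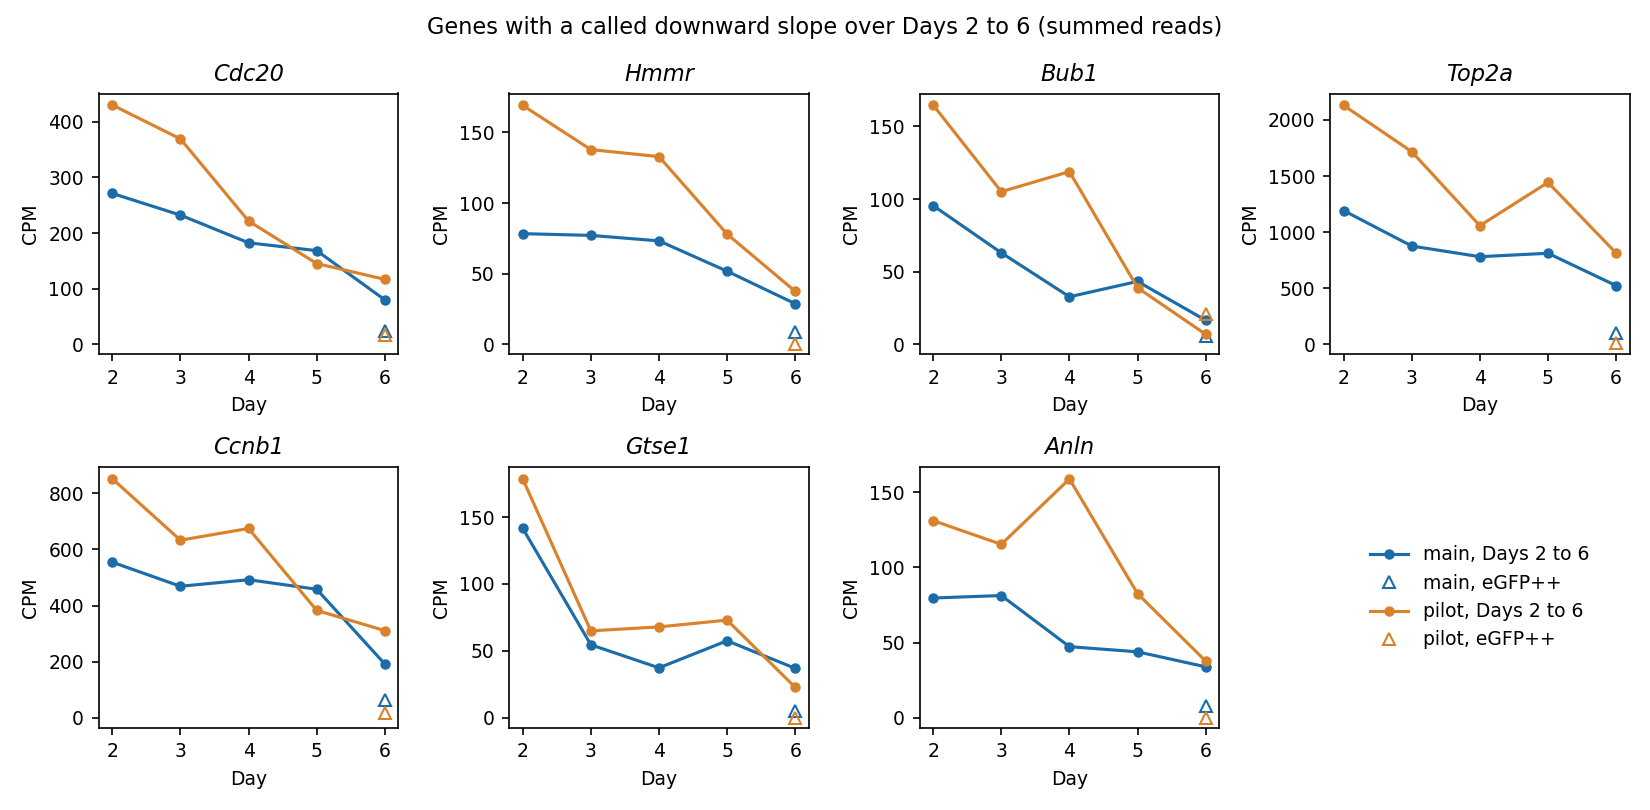
CPM (vertical axis, linear, a scale for each gene) by day for the 7 genes whose slope in summed reads was called lower, main in blue and pilot in orange, with Day 6 eGFP++ as open triangles. Day 6 lies below Day 2 in each line, and the triangles lie at or below the Day 6 points except for the pilot Bub1 value.

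Day 6 against Day 2 gave fewer calls in reads. With edgeR, 0 of 49 members were called in reads, beside 0.249% of all genes called lower and 0.585% higher. At an unadjusted p under 0.05, 14 were lower, beside 5.52% of all genes. In simulated sums this fit called 0 of 50 genes changed 2-fold and 6 of 50 changed 4-fold. DESeq2 called 7 members, beside 740 of all genes called lower and 1306 higher. In edgeR the fitted median of the members was -1.12 and that of all genes 0.17, with 44 of 49 fitted lower. In each experiment alone, 44 main and 40 pilot members were lower, 37 of them in both, and Mki67 and Nuf2 were higher in both. How many of all genes were lower in both experiments was not counted. In cells with a read 22 of 49 members were called and all 22 fell, beside 6.96% of all genes called lower and 7.01% higher. They were 4 of 6 cyclins and partners, 2 of 4 kinases, 3 of 5 checkpoint genes, 3 of 3 around the anaphase-promoting complex, 4 of 8 centromere and kinetochore genes, 1 of 4 spindle proteins, 2 of 3 cytokinesis genes, 2 of 3 chromosome proteins, Gtse1, and 0 of 6 kinesins and 0 of 5 condensin subunits. Cdc20 led with -1.99 ± 0.42 (adjusted p = 9.225e-05), followed by Cdk1. In this measure 48 main members but 34 pilot members had a lower share on Day 6. How many of all genes had a lower share was not counted. The fitted median in cells with a read was -1.21 for the members and -0.04 for all genes. Genes per thinned cell fell from a median of 2167 to 1494.5 in the main and rose from 1003 to 1682 in the pilot experiment. Without the main Day 2 sum the count was 0 and without the main Day 6 sum it was 4. Without a term for the experiment the count was 6, and with all reads instead of thinned cells it was 5. These 2 settings called 439 and 293 of all genes lower.

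Between neighbouring days 0 members were called in reads by edgeR in each of 4 comparisons, and DESeq2 called 0 as well. All genes called higher made up 0.0498% from Day 2 to Day 3 and 0% in the other 3, and 0% were called lower in any. At an unadjusted p under 0.05, 0, 1, 0 and 5 members were lower from Day 2 to 3, 3 to 4, 4 to 5 and 5 to 6, beside 1.31%, 1.49%, 1.3% and 1.82% of all genes. The fitted medians of the members were 0.05, -0.34, -0.11 and -0.73, against 0.09, -0.02, 0.13 and -0.002 for all genes. The last step is the largest in level too. From Day 5 to Day 6, 49 of 49 main and 41 of 49 pilot members had a lower CPM, beside 48.5% and 55.1% of all tested genes. The share of cells was lower for 49 of 49 members in the main and 42 of 49 in the pilot experiment. How many of all genes had a lower share was not counted. Their fitted median in cells with a read was also below 0, at -0.32, against -1.16 for the members. In cells with a read 0 passed from Day 5 to Day 6, beside 0% of all genes, with 28 members lower at an unadjusted p under 0.05 beside 5.82% of all genes, and without the pilot Day 6 sum 18 passed.

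The comparison of eGFP++ cells uses the same Day 6 sums. In eGFP++ cells nearly all members stood below the Day 6 cells that carry no eGFP label. All 49 had a lower CPM in main and 48 in pilot cells, where the exception is Bub1. Over all tested genes 57.5% and 59.1% were lower. The medians of the log2 ratios were -1.82 and -5.23, against -0.17 and -0.60 for all genes. In edgeR's fit of reads 1 member fell, Fbxo5, beside 0.0311% of all genes called lower. At an unadjusted p under 0.05, 39 members were lower, beside 4.79% of all genes. DESeq2 called 24 members, beside 457 of all genes called lower and 65 higher. Fbxo5 went from 62.8 CPM to 1.24 CPM in the main experiment, while pilot sums gave 62.2 and 0.733 CPM, a log2 change of -5.91 ± 0.67 over both (adjusted p = 0.0135). It was read in 11% and 11.3% of Day 6 cells, 1 of 282 main and 0 of 39 pilot eGFP++ cells, after thinning, the latter allowing a share of up to 7.69% of cells with a read at 10000 reads a cell; the unthinned pilot sum does hold Fbxo5 reads. In the 83 eGFP+ cells it stood at 49.8 CPM. The adjusted p of Fbxo5 was 0.0775 to 0.0786 without the main Day 6, the pilot Day 6 or the pilot eGFP++ sum, and without the main eGFP++ sum 34 members were called.

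In cells with a read 14 of 49 members were called in eGFP++ cells and all 14 fell, beside 0.429% of all genes called lower and 0% higher. The count was 0 without the main eGFP++ sum, 5 without either pilot sum, 24 without the main Day 6 sum, 0 with all reads instead of thinned cells and 0 without a term for the experiment. The median number of genes per thinned cell was 1494.5 on Day 6 and 1630.0 in eGFP++ cells of the main experiment; pilot cells had 1682 and 939. Top2a had the smallest adjusted p. It went from 25.1% to 8.16% of main and from 49.3% to 10.3% of pilot cells (-1.98 ± 0.36, adjusted p = 0.0003577). Of the 6 cyclins and partners 5 fell, namely Ccnb1, Cks2, Ccnb2, Ccna2 and Cdk1, with adjusted p from 0.00574 to 0.0412. The other one, Cks1b, was read in 54.2% of main Day 6 and still in 35.1% of main eGFP++ cells (adjusted p = 0.0747). The passenger complex genes Birc5, Cdca8 and Aurkb fell, with log2 changes of -2.47 ± 0.50, -2.14 ± 0.50 and -2.84 ± 0.75 (adjusted p = 0.00127, 0.0108 and 0.0412). Ube2c and Fbxo5 fell (-1.998 ± 0.44 and -4.99 ± 1.06), as did Hmgb2, Cenpa and Cdca3. None of the 5 checkpoint genes, 6 kinesins, 4 spindle proteins, 3 cytokinesis genes or 5 condensin subunits passed.

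In level, given first for main and then for pilot eGFP++ cells, Top2a had 98.8 and 11 CPM, against 523 and 813 CPM on Day 6. Ccnb1 had 64.3 and 16.7 CPM, Ccnb2 29.5 and 1.16 CPM, and Ccna2 9.25 and 1.04 CPM. Birc5 had 30.4 and 2.14 CPM, Aurkb 11.9 and 0.733 CPM and Ube2c 53.9 and 9.59 CPM. For these the main and pilot eGFP++ values all lie below both Day 6 values. Cdk1 was at 10.7 and 35 CPM, but in the pilot sum 1 cell gave 97% of its reads. A single cell also dominated Plk1 (11.8 and 40.4 CPM, 97.9% from 1 cell) and Aurka (17.3 and 40.9 CPM, 99.3%). Of the 49 members 13 drew over 90% of their pilot eGFP++ reads from 1 cell, and 22 were found in none of the 39 thinned cells. Bub1, the single member higher there, went from 6.88 to 21.1 CPM with 99.4% of its reads from 1 cell.

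Bub3 changed least in the main experiment, from 444 CPM on Day 6 to 373 CPM in eGFP++ cells, and its share of cells was 55.6% and 55%. In the pilot experiment it went from 353 to 49.7 CPM and from 59.2% to 7.69% of cells, so the experiments differ. Racgap1 and Cks1b kept 44.4 and 184 CPM in main eGFP++ cells, against 78.4 and 342 CPM on Day 6. The 21 members that were neither called nor among the 10 of highest mean level were lower in main eGFP++ than in main Day 6 cells without exception. Hmmr, Anln, Ndc80 and Kif2c had 2 reads in the pilot eGFP++ sum and Ttk, Kif20a, Kif20b and Kif4 had 0. Against a floor of 3 reads in that sum, Kif4 was at least 185-fold, Ttk at least 103-fold, Kif20b at least 61.7-fold and Kif20a at least 8.67-fold lower than on Day 6. These rest on 39 cells, and in the main experiment the same 4 genes were 1.64-fold, 3.77-fold, 2.45-fold and 3.41-fold lower.

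**Figure D5:**
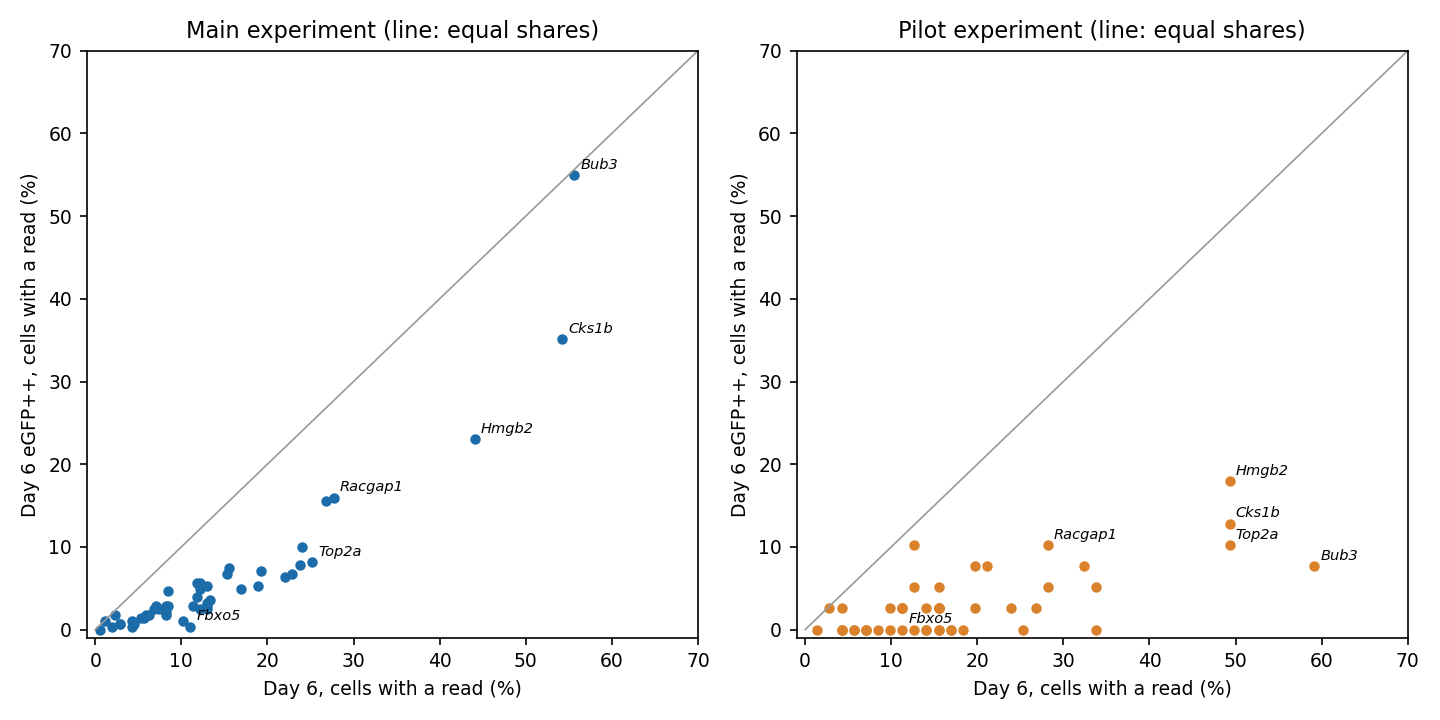
Share of thinned cells with a read of each of the 49 genes in Day 6 (horizontal axis, %) and Day 6 eGFP++ cells (vertical axis, %), main left and pilot right; the line marks equal shares and some genes are named. All 49 points lie below the line in both panels, Bub3 nearly on it in the main experiment.

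In the eGFP+ plate, which has no replicate and enters no test, 29 of 49 members had a lower CPM than main Day 6 cells, beside 72.4% of all tested genes. Their median log2 ratio was -0.32, against -0.71 for all genes. The members were above Day 6 at Ccnb1 (192 and 374 CPM), Hmgb2 (215 and 425 CPM) and Top2a (523 and 619 CPM). They were below it at Plk1 (87.4 and 43.1 CPM), Cdca8 (161 and 50.7 CPM) and Hmmr (28.7 and 9.81 CPM). Cdca8 drew 58.1% and Ccnb1 33.5% of its eGFP+ reads from 1 cell.

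Markers moved with these groups. The summed level of 16 neuron markers was 249 and 193 CPM in the main and pilot Day 2 sums, 1646 and 707 CPM on Day 5, 6349 and 6474 CPM on Day 6, 2862 CPM in eGFP+ and 15987 and 17839 CPM in eGFP++ cells. The 11 stem cell markers had 4932 and 4020.5 CPM on Day 2 and 40.3 and 90.03 CPM on Day 6. The 11 progenitor markers had 1859.7 and 1633 CPM on Day 6 and 707 and 1303 CPM in eGFP++ cells. The 14 genes of other lineages summed to 9.45 to 269.9 CPM, with 1 to 12 of them at 0 in a sum. They had 83.3 and 79.04 CPM on Day 6, 9.45 CPM in eGFP+ and 111 and 269.9 CPM in eGFP++ cells. Mbp, myelin basic protein, was at 38.5 and 67.7 CPM on Day 6 and at 80.1 and 269.8 CPM in eGFP++ cells, where in the pilot sum Foxa2 was the other gene above 0. Of the defining markers, Aqp4, of astrocytes, was at 0 in every sum but main Day 3, Ptprc, of blood cells, was at 0 in both eGFP++ sums, and Pecam1, of endothelial cells, was at 0 in the pilot and at 2.27 CPM in the main eGFP++ sum. Their part in the members' changes was not tested.

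Across the cells of a sum, the number of members was related to those of S phase genes and of neuron markers. Spearman's rho between the number of members and of 36 S phase genes with a read, across the thinned cells of a sum, ran from 0.22 to 0.66 and was 0.57 among 354 main and 0.66 among 71 pilot Day 6 cells. With 16 neuron markers it was 0.05 and 0.16 on Day 2 and -0.34 and -0.37 on Day 6, for the main and pilot experiment, -0.25 in eGFP+ and 0.02 and -0.19 in eGFP++ cells. All cells of a sum share its libraries, and rho with the number of all genes in the thinned cell was 0.02 to 0.66. Stmn2 was read in 32.2% of main Day 6 cells with at least 5 members and in 53.1% of the others, and in 15.6% and 48.7% of pilot cells, but main Day 2 cells with at least 5 members had it in 45.7%. Hes5, a Notch target of progenitors, was read in 50.4% and 19.4% of these main cells and in 59.4% and 25.6% of pilot cells.

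Cells with a read of 1 member were also counted for the others. For 48 members, all but Hjurp, the other members were counted in cells with and without a read of the gene, in each sum with at least 10 cells of both kinds. Top2a had such counts in 12 sums, and cells with a Top2a read held 1.46 to 4.87 times as many other members, with a median of 2.25. For Hmgb2 the median ratio was 2.27 and for Ccnb1 2.19. At the low end Kif20a had 1.15 over 2 sums and Cenpf 1.27 over 11. The ratio was below 1 in 1 sum each for Ccna2, Cks1b and Fbxo5. Ratios for genes that are no members were not computed, and cells with more genes of any kind also had more members, so a ratio above 1 was not shown to be particular to the members.

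Many genes of G2 and mitosis are known to share the promoter elements CHR (cell cycle genes homology region) and CCAAT box. Promoters of 6 of the 8 genes called in reads are shown with these letters marked. Whether the elements bear on the levels by day was not tested. Windows were 300 bases, from 250 before to 50 after the annotated start, from RefSeq on GRCm38.p6, with 43 of 49 members found in 47 windows. Each line below gives bases -120 to 25 of the start, with CHR and CCAAT matches on either strand in capitals: Cdc20 at chr4:118437319-118437463, Hmmr at chr11:40733413-40733557, Bub1 at chr2:127831835-127831979, Fbxo5 at chr10:5805441-5805585, Top2a at chr11:99024165-99024309 and Ccnb1 at chr13:100786462-100786606, all on the minus strand and written 5′ to 3′. Cdc20, Hmmr, Bub1, Top2a and Ccnb1 had called slopes and Fbxo5 was called in eGFP++ cells. The other two are left out of these lines: Anln has no CCAAT box and CHR matches from bases 22 and 29, which run past the end of the stretch, and Gtse1 has CCAAT boxes and no CHR match in either of its windows.
Cdc20: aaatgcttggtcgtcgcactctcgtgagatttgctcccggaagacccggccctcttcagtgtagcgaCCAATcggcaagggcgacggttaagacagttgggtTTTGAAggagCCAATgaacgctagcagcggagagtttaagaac
Hmmr: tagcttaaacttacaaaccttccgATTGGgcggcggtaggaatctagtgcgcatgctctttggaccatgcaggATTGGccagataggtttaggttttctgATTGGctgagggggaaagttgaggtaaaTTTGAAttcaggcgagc
Bub1: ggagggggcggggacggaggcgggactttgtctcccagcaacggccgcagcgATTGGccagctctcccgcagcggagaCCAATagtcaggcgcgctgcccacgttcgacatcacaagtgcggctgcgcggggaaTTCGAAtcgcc
Fbxo5: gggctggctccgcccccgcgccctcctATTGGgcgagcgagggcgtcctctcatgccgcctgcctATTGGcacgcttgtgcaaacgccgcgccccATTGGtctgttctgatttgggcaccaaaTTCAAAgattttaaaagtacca
Top2a: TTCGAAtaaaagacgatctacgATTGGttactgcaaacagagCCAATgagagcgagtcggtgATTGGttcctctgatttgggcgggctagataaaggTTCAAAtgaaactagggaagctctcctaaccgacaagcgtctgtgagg
Ccnb1: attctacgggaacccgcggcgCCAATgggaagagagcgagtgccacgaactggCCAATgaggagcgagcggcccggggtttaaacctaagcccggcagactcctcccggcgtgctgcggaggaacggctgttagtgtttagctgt

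CHR was searched on both strands as the letters TTTGAA, which read TTCAAA on the other strand, or as TTCGAA. The CCAAT box reads ATTGG on the other strand, and a match of 1 motif may share letters with the other. In 37 of 47 member windows (78.7%) a CHR was found, beside 19.2% of all 32851 promoter windows, and within 50 bases of the start in 70.2%, beside 5.31%. A CCAAT box was in 80.9% of member windows and 37.4% of all. Both were in 70.2% and 7.52%. Of the 36 S phase genes, 27 were found, with 32 windows, of which 15.6% had a CHR, while an E2F site (TTTCCCGC, TTTCGCGC, TTTGCCGC or TTTGGCGC, both strands) was in 34.4%, against 6.38% of member windows and 2.26% of all. Of 51 windows of 45 other G2 and mitosis genes, 60.8% had a CHR. The Ccnb1 window holds 2 CCAAT boxes in the printed part and no CHR match, and the other printed windows hold both motifs. These are matches of letters only, and a missing match says nothing about a factor.

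Genes of the same pathway outside the 49, from lists made with earlier results known, were tested in the same fits. Of 64 other G2 and mitosis genes tested in reads, 3 fell along the slope, beside 2.16% of all genes called lower. Of 63 tested in cells with a read, 16 fell and 1 rose from Day 2 to Day 6, beside 6.96% and 7.01% of all genes, and 5 fell and 1 rose along the slope, beside 5.76% and 7.45% of all genes. Mybl2, a transcription factor of late cell cycle genes, fell along the slope in reads (-0.85 ± 0.12 log2 per day, adjusted p = 0.00419). Wee1, a kinase that holds Cdk1 inactive, fell in cells with a read from Day 2 to Day 6 (-3.18 ± 0.76, adjusted p = 0.0006328), and so did Ccnb1ip1 (-7.89 ± 1.35, adjusted p = 4.42e-07). The main Day 6 sum held no read of Ccnb1ip1, so the size of its change is uncertain. The gene that rose, named after its values were seen, was Cdc25b (2.07 ± 0.69, adjusted p = 0.024). Of 36 S phase and replication genes, 4 fell along the slope in reads, beside 2.16% of all genes called lower. Along the slope in cells with a read 2 of 36 fell, which does not exceed the 5.76% of all genes called lower. From Day 2 to Day 6, 18 of 36 fell in cells with a read, beside 6.96% of all genes. Among them was Ung, a DNA repair enzyme (-2.86 ± 0.57, adjusted p = 2.664e-05). In eGFP++ cells 8 of 36 fell, among them Rrm2 of nucleotide synthesis (-1.99 ± 0.39, adjusted p = 0.00127) and Mcm3 of the replication helicase (-2.74 ± 0.62, adjusted p = 0.0066), and 1 of 63 other G2 and mitosis genes, where 0.429% of all genes were called lower. The summed S phase level was 5136 CPM on Day 2, 4432 CPM on Day 5 and 2018 CPM on Day 6 in the main, and 6168, 4957 and 2568 CPM in the pilot experiment. It was 743 and 1272 CPM in eGFP++ cells, 2.71-fold and 2.02-fold below Day 6, where the 49 members were 2.87-fold and 7.01-fold below.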

How the data were processed

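Single-cell reads had been counted per gene and cell by the authors; the deposited tables hold whole-number read counts, not normalized and without molecular identifiers. The submitters' processing notes name TopHat2 2.1.1, HTSeq 0.6.1 and mm10, and give neither role nor use of strand. Columns have no header, so each was assigned to its plate's group; 40 columns of 1 table matched no sample and were not used. Of the reads, 34.9% stood in 5 summary lines and 6.16% in 92 spike-ins; 27 names that were not in every table were left out. Reads shared with near-identical gene copies or an overlapping gene on the other strand cannot be told apart here.

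Cells with at least 500 genes were summed by group and experiment. edgeR 4.0.16 (R 4.3.3) with filterByExpr and TMM tested 16080 genes by quasi-likelihood, with terms for group and experiment (5 residual df), and a slope model with day as a number (7 df) tested the same; Benjamini-Hochberg adjustment over all genes, threshold 0.05, two-sided. The second measure counted thinned cells with a read per group, with the number of cells as offset, for genes found in at least 10 cells. DESeq2 1.42.0 was an alternative. The fits were tested on simulated sums. For Day 6 against Day 2 the fit of reads called 0 of 50 genes changed 2-fold and 6 of 50 changed 4-fold. The fit of cells with a read called 6 of 50 and 30 of 50 at these folds. A member that was not called may therefore still have changed. The experiment is a term because main and pilot are separate replicates with their own plate formats; differences of main and pilot correlated between groups at 0.0494 to 0.249 (median 0.11 over 15 pairs of groups). That the 2 experiments are biological replicates is the submitters' statement. The experiment term takes out a difference between them that all groups share. The p-values rest on the spread left over, which is how far the experiments disagree on changes between groups. For the slope this spread also holds the scatter of days around a straight line. Members and lists were chosen with earlier results of these data known. Values in every sum are given for the 26 members called in a comparison and the 10 of highest mean CPM, 28 in all. Intervals and rank correlations came from scipy 1.17.1 under Python 3.11.15, with tables handled in pandas 2.3.3 and numpy 2.4.6 and figures drawn with matplotlib 3.10.9.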

Additional observations from a re-analysis of the deposited data

Results flagged for a closer look

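Single plates of a group stood apart from the other plates in 6 values; 3 measures were looked at in each of 4 groups of 4 or 5 plates, against Dixon's 95% critical value, which chance alone passes in about 1 of 20 groups. In the main Day 3 group 1 plate of 5, whose cells had the fewest genes (median 1220), had the highest summed level of the members at 11030 CPM, with the next highest plate at 7620.0 CPM, while it had the lowest share of cells with at least 5 members at 87.2% and the lowest mean number of members per cell at 10.3. In the main Day 6 group 1 plate of 4 had 24.7% of cells with at least 5 members and a mean of 4.76 members, with 2416 CPM against 4278 to 4856 CPM on the others. In the main Day 2 group 1 plate had 96.5% of cells with at least 5 members where the other 3 had 100%.

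No cause was tested for these plates. Without the Day 3 plate the slope gave 6 members called in reads and 9 in cells with a read, and without the Day 6 plate it gave 7 and 11. Of all genes, 293 and 729 were called lower without the Day 3 plate and 343 and 752 without the Day 6 plate.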

How the results depend on the processing

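The counts of called members moved more than their direction: no member was called higher under any setting, and no called log2 value changed sign. DESeq2 called 7 members from Day 2 to Day 6, 24 in eGFP++ and 20 along the slope in reads, beside 740, 457 and 1172 of all genes called lower. Cells thinned before summing gave 5 and 6 in the first 2, beside 216 and 21 of all genes called lower. With cells counted from all reads the numbers were 5, 0 and 2 in Day 6 against Day 2, eGFP++ and slope, and thinning to 5000 reads gave 3 from Day 5 to Day 6. Without a term for the experiment (no block on the replicate) they were 6, 0 and 8, and in reads 1 and 5 for eGFP++ and slope. TMM scaling of cell numbers, chosen after seeing the data, gave 15, 39, 23 and 30 for Day 6 against Day 5, Day 6 against Day 2, eGFP++ and slope. Beside them 120, 1950, 194 and 1523 of 13289 genes were called lower and 158, 1990, 68 and 1640 higher. This scaling moved the median of all genes from Day 5 to Day 6 from -0.32 to 0.003. Leaving out 1 sum gave 0 to 34 calls in eGFP++ and 1 to 8 in the slope in reads, and 0 to 18 (Day 6 against Day 5), 0 to 31 (Day 6 against Day 2), 0 to 24 (eGFP++) and 2 to 18 (slope) in cells. The slope in reads gave 1 without either Day 6 sum or the pilot Day 2 sum and 2 without the main Day 2 sum. In cells, the Day 6 against Day 2 count was 4 without the main Day 6 sum, and the slope count 2, 3 and 6 without the main Day 2, main Day 6 and pilot Day 6 sums. Where a sum is left out, the lone sum of a group is assumed to vary like the other groups. Without the main eGFP++ sum the members' median log2 change in reads was -5.53, beside -0.57 for all genes. The causes were not tested. The mean log2 ratio of the summed level, Day 6 against Day 2, was -0.99 as reported, -1.23 as the mean over thinned cells and -0.94 without ribosomal protein genes in the total.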
